A study of Drosophila melanogaster with 2 samples.

Results

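Mitochondrial ribosomal protein genes were examined for binding of Sima, a fly transcription factor orthologous to mammalian HIF-1alpha, in Drosophila melanogaster embryos. The members were the protein-coding genes whose symbol starts with mRpS or mRpL in the Ensembl annotation, 73 of the 13945 protein-coding genes on the 6 chromosome arms that held peaks. Of these, 26 encode proteins of the small subunit (mRpS) and 47 proteins of the large subunit (mRpL). The data came from chromatin immunoprecipitation sequencing of whole embryos aged 0 to 24 h, with males and females pooled. All embryos were of 1 transgenic line, sima-RB-GFP, which stably carries a transgene for the RB form of Sima fused at the C terminus to GFP. The antibody recognised GFP, so the measured protein was the tagged isoform. The 2 samples were biological replicates of 1 group, from separate biosamples of that line. Embryos without the tag or at another oxygen level were not analysed here, and the labels do not say whether untagged Sima was present.

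The mitochondrial ribosome translates the few proteins encoded by mitochondrial DNA, which are core subunits of the respiratory chain and of ATP synthase. Its ribosomal RNAs come from the mitochondrial genome, but its proteins are encoded in the nucleus, made in the cytosol and imported. Some of these proteins have bacterial counterparts and carry their numbers, and others exist only in mitochondria. HIF proteins are best known in mammals for raising glycolytic genes and lowering mitochondrial respiration when oxygen is scarce.

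The deposited data were lists of enriched regions on the dm6 build, each with a signal and a summit, the base of strongest enrichment. There was a list of 30000 regions for each replicate, 1 of the same length for the pooled reads, and a shorter list kept by the authors for reproducibility between replicates, by the irreproducible discovery rate (IDR). The IDR list held the strongest pooled regions, down to a signal of 59.0. A region counted for a gene if the distance from its summit to any start site of that gene was 500 bp or less. Strength is given below as the rank in a list, where 1 is the strongest, and as the ratio of the signal to the median signal of the same list. Read numbers are not among the deposited values used, and the depth behind each value is unknown. The list of replicate 1 also held 14 regions outside the 6 arms, and that of replicate 2 held 0.

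Sima peaks fell on few of these genes, but some of those peaks were among the strongest in the genome. An IDR summit lay near a start site of 7 of the 73 genes (9.59%), against 6.22% of all protein-coding genes. These shares were not matched for start regions shared with another gene. Where the start region was shared, 5 of 54 members had an IDR summit (9.26%), against 11.8% of such genes. Where it was not shared, 2 of 19 had one (10.5%), against 3.72%. The 7 members fell into separate ranges of strength, with no member between ranks 35 and 1109. mRpS10, mRpL41, mRpS23 and mRpL23 had ranks of 6, 7, 29 and 35, and mRpL4, mRpS2 and mRpS22 had ranks of 1109, 1119 and 1205. Among the strongest 100 regions, a limit chosen after the ranks were seen, 4 of 73 members had a summit (5.48%), against 0.631% of all genes. Where another protein-coding gene started within 500 bp of the gene's own start, these were 3 of 54 members (5.56%), against 1.32% of such genes. Elsewhere they were 1 of 19 (5.26%), against 0.322%. No test was made of these shares, since the replicates are embryo samples and not genes.

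The sequence under the summits is shown first for the strongest peaks, because their base composition was not used to choose the genes. Each line gives the bases within 50 bp of a summit, read 5' to 3' on the strand of the member, from the Release 6 genome. Capitals mark the A- and T-rich word TTAAAA on either strand, a word that an earlier look at these data had found at many Sima summits. The mRpL23 window is cut to 81 bp, which leaves 30 of its 50 untranslated bases, and its copy of the word lies in the part left out.
mRpS10, 3R:15229487-15229587, plus strand: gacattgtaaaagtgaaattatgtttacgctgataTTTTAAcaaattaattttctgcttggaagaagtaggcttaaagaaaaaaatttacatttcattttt
mRpS23, 2L:13835415-13835515, minus strand: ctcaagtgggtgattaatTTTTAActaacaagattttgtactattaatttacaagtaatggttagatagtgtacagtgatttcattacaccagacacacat
mRpL23, 3L:2373546-2373626, minus strand: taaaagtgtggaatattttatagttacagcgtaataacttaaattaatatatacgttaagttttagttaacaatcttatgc

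The windows at the weaker IDR summits (mRpL4, mRpS2 and mRpS22) and at members just outside the IDR list (mRpL24 and mRpS7) are shown for comparison, in the same form.
mRpL4, 2L:16329190-16329290, minus strand: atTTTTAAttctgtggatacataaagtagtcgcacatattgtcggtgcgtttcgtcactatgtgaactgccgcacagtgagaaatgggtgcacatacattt
mRpS2, 2L:4850542-4850642, minus strand: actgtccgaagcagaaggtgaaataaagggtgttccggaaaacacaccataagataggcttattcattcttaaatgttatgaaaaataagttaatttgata
mRpS22, 3R:27916607-27916707, plus strand: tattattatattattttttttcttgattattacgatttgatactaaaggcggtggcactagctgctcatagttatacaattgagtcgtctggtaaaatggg
mRpL24, 2L:4945428-4945528, minus strand: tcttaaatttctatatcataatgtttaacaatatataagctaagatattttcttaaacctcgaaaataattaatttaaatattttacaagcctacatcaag
mRpS7, 2L:10386518-10386618, plus strand: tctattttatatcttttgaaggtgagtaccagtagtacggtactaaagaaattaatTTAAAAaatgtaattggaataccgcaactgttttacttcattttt

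The 4 strong summits lay in sequence poor in G and C. Within 50 bp of the summit, the sequence held 23.8% G+C at mRpS10, 21.8% at mRpL41, 29.7% at mRpS23 and 20.8% at mRpL23. The weaker summits had 40.6% at mRpL4, 32.7% at mRpS2 and 31.7% at mRpS22. The 653 IDR summits at promoters, 500 bp or less from the start of a protein-coding gene, had a median of 32.7% and a range of 16.8 to 71.3%. The 4 strong summits were therefore below that median, and at least 1 IDR promoter summit was lower than each of them. The 62 promoter summits among the strongest 100 regions had a median of 31.7%, and the other 591 promoter summits one of 33.7%.

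**Figure D1:**
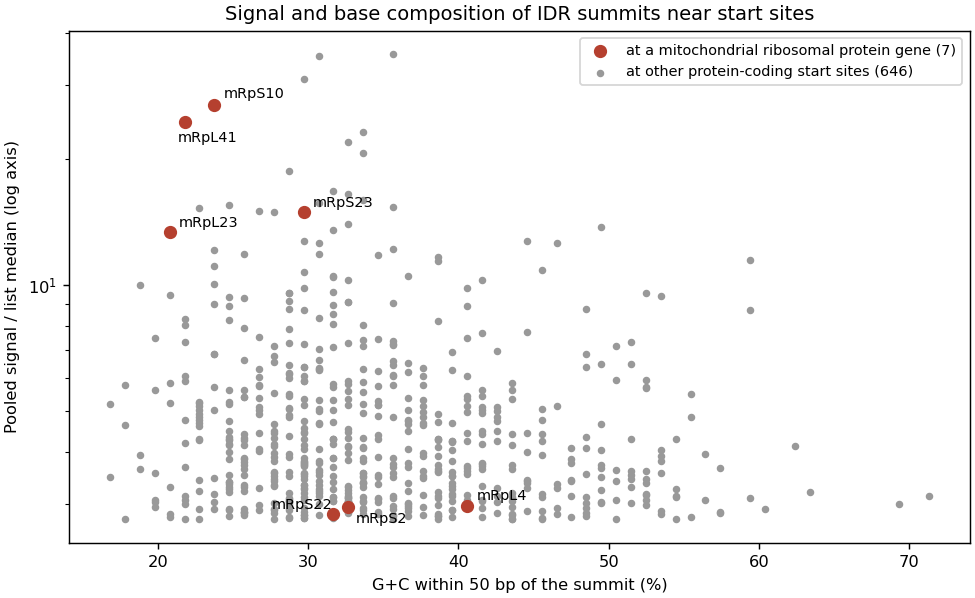
Signal of each IDR summit at a promoter (500 bp or less from a protein-coding start), as the pooled signal divided by the list median (log axis), against G+C within 50 bp of it. The 7 summits at mitochondrial ribosomal protein genes are red and the other 646 grey; the 4 strong members lie at 20.8 to 29.7% G+C.

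Of the 13 distinct words searched on both strands, TTAAAA was the one found at more than 1 of these summits. It stood within 50 bp of 5 of the 7 summits (71.4%), at mRpS10, mRpL41, mRpS23, mRpL23 and mRpL4. Among all IDR summits 31.3% had it, and among the 653 at promoters 34.6%. TTAAAA holds only A and T, and its share was not set beside summits of like G+C. Within 25 bp of the summit it stood at 1 of 7 (14.3%), against 16.7% of all IDR summits. The hypoxia response core, searched as ACGTG or GCGTG on either strand, was found at 0 of the 7 summits. It stood at 13.3% of all IDR summits and 15.6% of those at promoters. At such shares, 0 matches in 7 windows also carry little information. TATAAA, the TATA box core, was found at mRpL23 alone. The other words had 0 matches at the 7 summits: CACGTG (a palindrome that holds ACGTG), TATCGATA and the overlapping TATCGAT (the DNA replication-related element), GGTCACAC, GCGCATGC, GAGAG, TTACGTAA, TTATATAA, and TTACATAA with its reverse complement TTATGTAA. Each of these stood at 9.04% or less of all IDR summits, so with 7 windows a lack of matches carries little information.

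At the small subunit, mRpS10 had the strongest peak. mRpS10 (FBgn0038307, 3R:15229665-15230516, plus strand) is the counterpart of the bacterial small subunit protein of the same number. Its region at 3R:15229376-15229672 had rank 17 in replicate 1 and rank 5 in replicate 2. The signal was 17.4 times the list median in replicate 1 and 29.4 times in replicate 2, a mean of 23.4 ± 8.53 (SD, n = 2). The summit lay in intergenic sequence 128 bp upstream of the nearer of its 2 start sites. It was also 129 bp upstream of Art3, an arginine methyltransferase gene on the other strand, so the peak stood midway between both start sites, and binding at one gene or the other cannot be told apart.

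mRpS23 followed, with a peak that lay closer to its neighbour. mRpS23 (FBgn0260407, 2L:13834250-13835072, minus strand) encodes a small subunit protein found in mitochondria and not in bacteria. Its region at 2L:13835343-13835593 had rank 46 in replicate 1 and 25 in replicate 2, with ratios of 9.89 and 16.0 (mean 12.9 ± 4.33, SD, n = 2). The summit was 393 bp upstream of mRpS23 but 99 bp upstream of CenG1A, which encodes a GTPase-activating protein for Arf GTPases and is read the other way. The region itself did not reach the start site of mRpS23.

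The weaker small subunit peaks, at mRpS2 and mRpS22, were also nearer to another gene. At mRpS2 (FBgn0031639, 2L:4849439-4850419, minus strand), a counterpart of a bacterial protein, the region 2L:4850394-4850789 had rank 1705 in replicate 1 and 964 in replicate 2 (ratios 2.12 and 3.17; mean 2.64 ± 0.743, SD, n = 2). Its summit was 173 bp upstream of mRpS2 and 49 bp upstream of Mon1, which acts in endosome maturation. At mRpS22 (FBgn0039555, 3R:27916908-27918248, plus strand), a protein found in mitochondria and not in bacteria, the region 3R:27916459-27916854 had ranks of 1748 and 1146 (ratios 2.10 and 2.88; mean 2.49 ± 0.553, SD, n = 2). Its summit was 251 bp upstream of mRpS22 and 141 bp upstream of CG5003. Cut to the length of the IDR list, the list of replicate 1 held neither peak and that of replicate 2 held both.

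At the large subunit, mRpL41 had the strongest peak and stood alone. mRpL41 (FBgn0034001, 2R:15217024-15217617, minus strand) encodes a large subunit protein found in mitochondria and not in bacteria. Its region at 2R:15217585-15217909 had rank 19 in replicate 1 and 7 in replicate 2. The ratios were 16.3 and 27.2 (mean 21.7 ± 7.76, SD, n = 2). The summit was intergenic, 137 bp upstream of the start site, and the replicate summits were each 2 bp from it. No other gene started within 500 bp; the nearest other protein-coding start site, that of CG8079, was 762 bp from that of mRpL41, and that of a noncoding RNA was 578 bp away.

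The mRpL23 peak lay inside the gene. mRpL23 (FBgn0035335, 3L:2372844-2373704, minus strand) encodes the counterpart of a bacterial protein that sits at the exit of the tunnel through which new proteins leave the ribosome. The region 3L:2373483-2373708 had rank 56 in replicate 1 and 36 in replicate 2, with ratios of 8.91 and 14.3 (mean 11.6 ± 3.79, SD, n = 2). mRpL23 has 3 annotated start sites. The summit, in an intron, was 82 bp and 108 bp downstream of the outer pair and 95 bp upstream of the innermost. CG9004, on the other strand, started 132 bp from the summit and 24 bp from the outermost mRpL23 start site.

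mRpL4 was the third large subunit gene with an IDR summit and the only member of the 7 at which replicate 1 gave the higher ratio. mRpL4 (FBgn0001995, 2L:16328059-16329132, minus strand) encodes the counterpart of a bacterial protein that lines the exit tunnel. The region 2L:16329042-16329437 had rank 909 in replicate 1 and 2694 in replicate 2 (ratios 2.67 and 1.84; mean 2.25 ± 0.589, SD, n = 2). In replicate 2 it thus ranked beyond the length of the IDR list. The summit was intergenic, 108 bp upstream, and no other gene started within 500 bp; CG4440 started 793 bp from mRpL4.

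**Figure D2:**
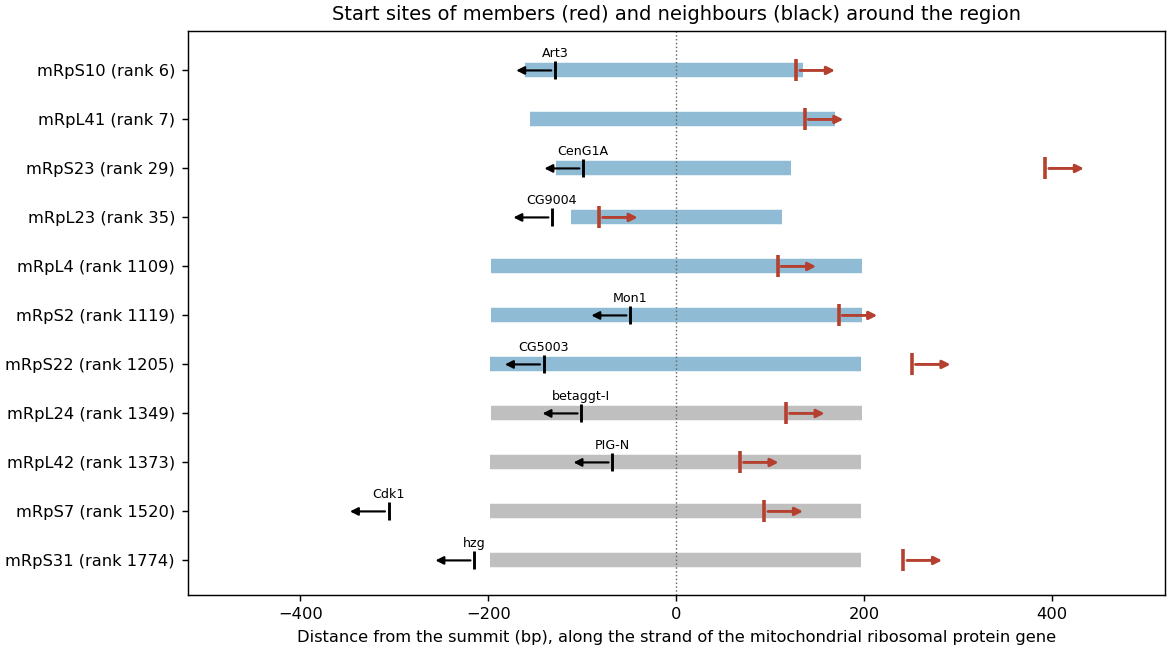
Position of the nearest start site of each of the 11 strongest members (red, with the direction of transcription) and of other protein-coding genes with a start site within 500 bp of the summit (black), as the distance from the summit in bp. Bars show the extent of the region, blue in the IDR list and grey outside it; the strong peaks are narrower, and each summit except those of mRpL41 and mRpL4 lies beside a gene on the other strand.

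The strong peaks also differed in width and in the replicate lists. The regions at mRpS10, mRpL41, mRpS23 and mRpL23 were 297, 325, 251 and 226 bp wide, while each weaker region had the 396 bp that 1145 of the IDR regions share, the greatest width in the list. Narrow regions were usual among strong peaks, with a median of 215 bp for the strongest 100. With both replicate lists cut to the length of the IDR list, these 4 genes were the members found in both. They were 4 of 73 members (5.48%), against 3.64% of all genes, not matched for shared start regions. In replicate 1, 11 to 14 regions off the 6 arms ranked ahead of them. Counted over the arms alone, mRpS10, mRpL41, mRpS23 and mRpL23 had ranks of 6, 7, 32 and 42 in replicate 1, beside 5, 7, 25 and 36 in replicate 2.

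Counted by replicate, the strong peaks stayed and the weaker ones changed. In the list of replicate 1, cut to the length of the IDR list, 5 members had a summit (6.85%, against 5.51% of all genes): the 4 strong ones and mRpL4. In that of replicate 2, cut likewise, 9 had one (12.3%, against 6.54%): the 4 strong ones, mRpS2, mRpS22, mRpL24, mRpL34 and mRpL42. With both replicates, 4 of 26 small subunit genes (15.4%) and 3 of 47 large subunit genes (6.38%) had an IDR summit, against 6.22% of all genes. With replicate 1 alone these were 2 (7.69%) and 3 (6.38%), and with replicate 2 alone 4 (15.4%) and 5 (10.6%). The share of the small subunit was thus the higher one each time, on few genes. The order turned when each summit counted only for its nearest start site. The small subunit then had 1 of 26 (3.85%) and the large subunit 3 of 47 (6.38%), against 4.61% of all genes. Members that carry a bacterial number (up to 21 in the small and 36 in the large subunit) had an IDR summit in 4 of 42 cases (9.52%). Those with a higher number, called a mitochondrial number below, had one in 3 of 31 (9.68%). This split is by number alone and does not settle which proteins have bacterial counterparts. The shares by replicate, subunit and number were not matched for shared start regions.

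The members just outside the IDR list had signals close to those just inside. The pooled signal was 60.8 at mRpS22, the last inside, and 57.3 at mRpL24, the first outside, where the lowest signal in the IDR list was 59.0. mRpL24 had rank 1349 (1368 in replicate 1 and 1233 in replicate 2; ratio 2.53 ± 0.320, SD, n = 2), with the summit between it and betaggt-I, a gene for a subunit of a prenyl transferase. mRpL42 had rank 1373 (2871 and 1093; ratio 2.36 ± 0.829, SD, n = 2), with its summit 68 bp upstream of both mRpL42 and PIG-N, a gene of GPI anchor synthesis. mRpS7 had rank 1520 (1517 and 2686; ratio 2.02 ± 0.260, SD, n = 2), between it and the cell cycle kinase gene Cdk1. mRpS31 had rank 1774 (3839 and 1753; 1.93 ± 0.450, SD, n = 2), near hzg, and mRpL37 rank 1826 (1827 and 2681; 1.95 ± 0.161, SD, n = 2).

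**Figure D3:**
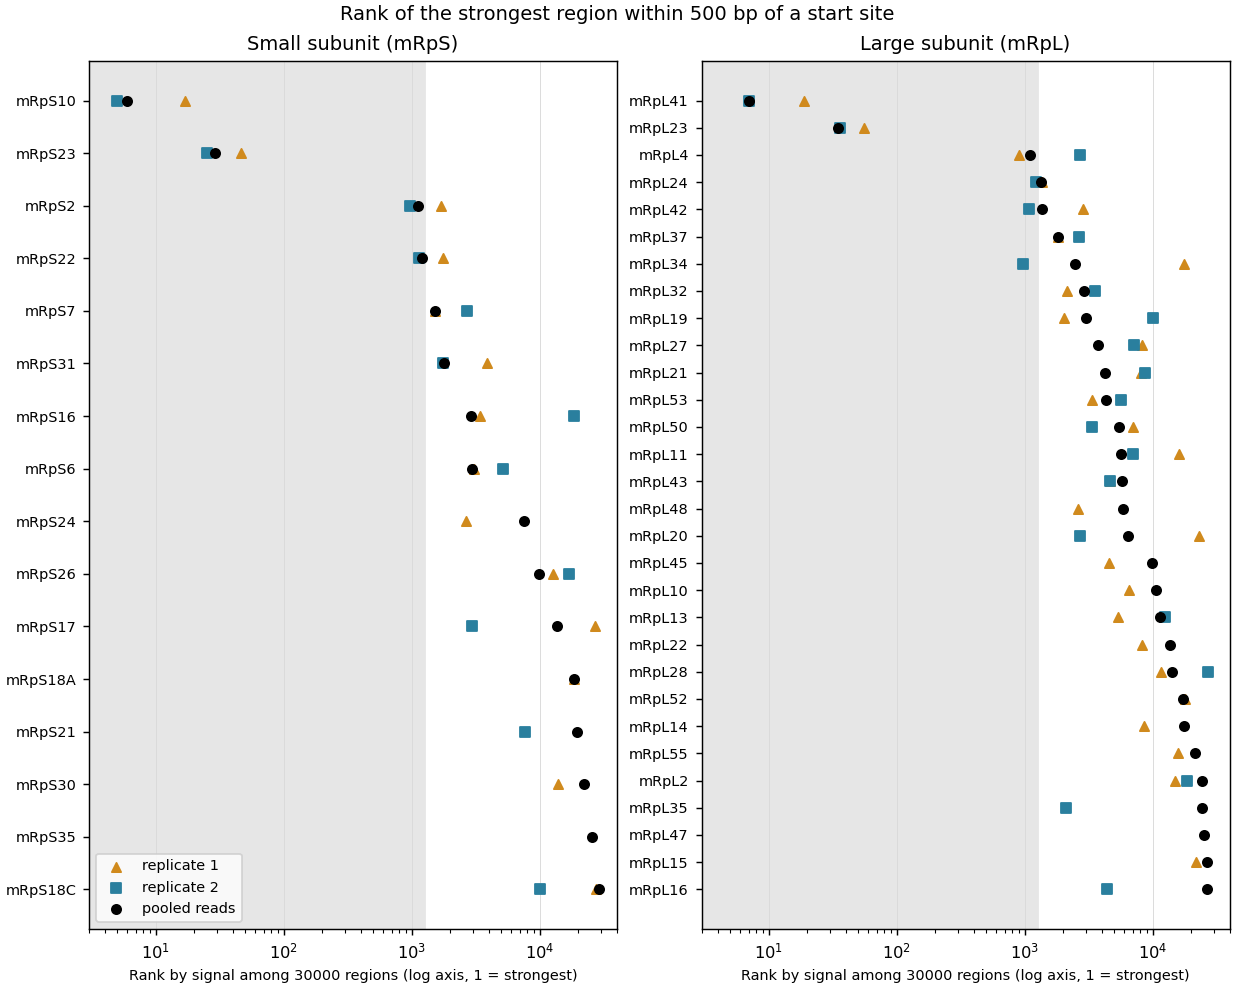
Rank by signal of the strongest region within 500 bp of a start site, for the 46 members with a region in the pooled list, in the pooled reads (black), replicate 1 (orange) and replicate 2 (blue), on log axes. The shaded area holds ranks up to the length of the IDR list; the pooled ranks leave a gap between 35 at mRpL23 and 1109 at mRpL4, and a missing marker means no region in that list.

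Weak regions were common at these genes. The pooled list held a region near 46 of the 73 members (63.0%), against 48.0% of all protein-coding genes, in 16 of 26 small subunit and 30 of 47 large subunit genes. By rank, the members' share was above that of all genes from 1273 to 2544 (6 members, 8.22% against 4.98%), from 2545 to 5000 (7 members, 9.59% against 7.18%) and from 20001 to 30000 (9 members, 12.3% against 8.5%). It was closer to that of all genes from 5001 to 10000 (8 members, 11% against 9.74%) and from 10001 to 20000 (12.3% against 11.4%), and below it in the IDR list past the strongest 100 (4.11% against 5.59%). Both replicate lists held a region near 32 members (43.8%, against 31.7% of all genes). Neither this share nor the 63.0% was matched for start regions shared with another gene, which are compared further below. Another 15 members had a region in replicate 1 only and 7 in replicate 2 only, beside 2309 and 1683 of all 13945 genes. Among the 32, the ratio was higher in replicate 2 at 17 and in replicate 1 at 15. The share higher in replicate 2 was thus 53.1%, against 56.1% of all genes with a region in both lists. A region near the end of a list of fixed length is close to background, and embryos lacking the tagged protein, which would show the background at these promoters, were not analysed here.

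**Figure D4:**
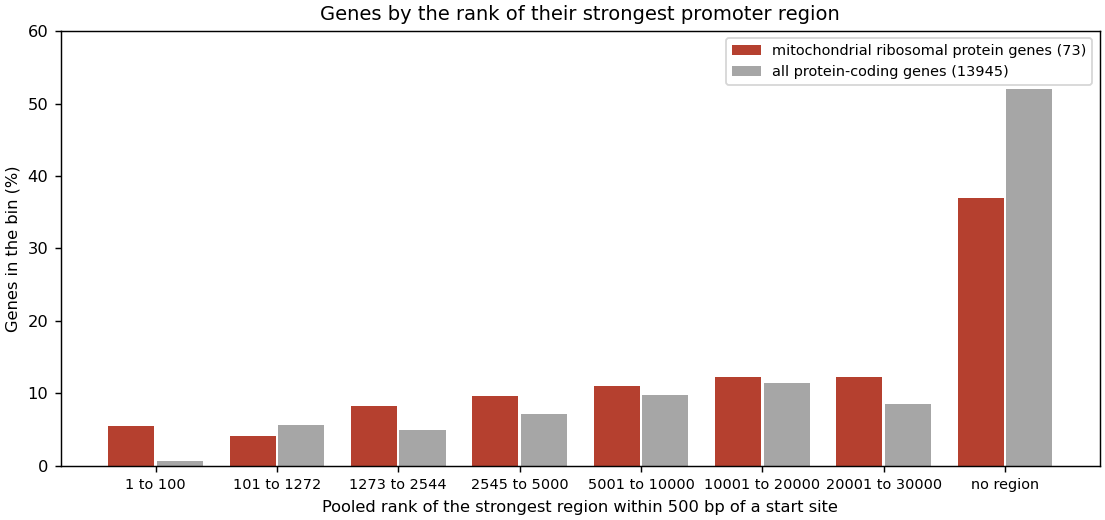
Percent of the 73 mitochondrial ribosomal protein genes (red) and of all 13945 protein-coding genes (grey) by the pooled rank of their strongest region within 500 bp of a start site. The largest red excess in proportion is in the ranks 1 to 100 (5.48% against 0.631%), and 37.0% of members against 52.0% of all genes had no region. The sets of genes were not matched for shared start regions, and the limit of 100 was chosen after the ranks were seen.

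The replicates disagreed widely at some members with weak regions. mRpL34 had rank 17550 in replicate 1 and 979 in replicate 2, with ratios of 0.937 and 3.13. mRpL20 had ranks of 23242 and 2702, and mRpS17 had ranks of 26988 and 2927. In the other direction, mRpL19 had ranks of 2033 and 10158, and mRpS16 had ranks of 3423 and 18420. mRpL35 had a region in replicate 2 (rank 2118) and none in replicate 1, and mRpL48 one in replicate 1 (rank 2637) and none in replicate 2. None of these members was in the IDR list.

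The pooled list had no region near 27 members (37.0%, against 52.0% of all genes), 10 of the small and 17 of the large subunit. For 10 of them a replicate list had one: mRpL1, mRpL3, mRpL9, mRpL17, mRpL18, mRpL30, mRpL36, mRpL54, mRpS18B and mRpS34. The remaining 17 had none in any list: mRpL12, mRpL33, mRpL38, mRpL39, mRpL40, mRpL44, mRpL46, mRpL49, mRpL51, mRpS5, mRpS9, mRpS11, mRpS14, mRpS25, mRpS28, mRpS29 and mRpS33. They include mRpL12, whose bacterial counterpart forms the stalk that recruits translation factors. Members lacked a region less often than all genes: 76.7% of members had one in any of the 3 lists, against 62.3% of all genes. With a shared start region the shares were 83.3% and 79.8%, and with their own 57.9% and 54.4%. Absence from a list means that no region there was among its 30000, not that Sima was absent.

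These genes often stood close to another gene. A start site of another protein-coding gene lay within 500 bp of one of their own at 54 of 73 members (74.0%), against 30.9% of all protein-coding genes. The share was 73.1% in the small and 74.5% in the large subunit, 48.8% for oxidative phosphorylation genes and 40.2% for cytoplasmic ribosomal proteins. Of 46 pooled summits near members, 37 were also within 500 bp of another protein-coding gene's start, and 19 were nearer to that gene. In 37 of the 39 pairs of member and neighbour the genes were on opposite strands. The counts of summits and of pairs are given without the same over all genes, so they do not show a trait particular to the members. Some neighbours also act in mitochondria: HtrA2, a mitochondrial protease gene, beside mRpL11, Mitofilin, a gene of cristae organisation, beside mRpL35, and ATPsynD, an ATP synthase subunit gene, beside mRpL55. These 3 were picked after the list was seen, and their regions had pooled ranks of 5717, 24420 and 21633.

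Over the whole genome, genes with a shared start region were more often near a peak, so members were also set beside genes of like layout. Of the 54 members that shared a start region, 5 had an IDR summit (9.26%), against 11.8% of all such genes. Of the 19 with a start region of their own, 2 did (10.5%), against 3.72%. These 2 were mRpL41 and mRpL4. In the pooled list the shares were 39 of 54 (72.2%, against 67.5%) and 7 of 19 (36.8%, against 39.3%). For a region in both replicate lists they were 29 of 54 (53.7%, against 49.8%) and 3 of 19 (15.8%, against 23.5%). Beside genes of like layout, the members' share in the pooled list was thus a little higher where the start region was shared and a little lower where it was not. The share in both replicate lists was likewise higher in the former and lower in the latter. With 1000 bp in place of 500 bp as the limit for a neighbour, 13 members had their own start region and 0 of these had an IDR summit, against 3.57% of all such genes, so the difference of 10.5% and 3.72% rests on that limit.

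The IDR summits of members lay at distances close to those at other genes, and their pooled summits were more often upstream. The median summit of the 7 members was at -137 bp from the nearest start site of the member (6 upstream and 1 downstream), against -139 bp for the 868 protein-coding genes with an IDR summit (85.9% upstream). In the pooled list the 46 members had a median of -124 bp with 80.4% upstream, against -81 bp and 64.5% for 6695 genes. These pooled shares were not set beside genes of like layout. Of the 46 summits, 37 were also within 500 bp of another protein-coding gene's start, and a summit between diverging start sites is upstream of both genes. Whether the difference goes with layout was not tested. Among the 7, the distance ran from -393 bp at mRpS23 to 82 bp at mRpL23.

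The start regions of the members were also searched for the fixed words, from 250 bp before to 50 bp after the outermost start site. TATCGATA stood in 15 of 73 (20.5%), against 9.37% of all protein-coding genes, and GAGAG in 12 (16.4%, against 29.8%). Among genes that share a start region, the shares of TATCGATA were 14.8% of 54 members and 16.1% of 4309 genes. Among those with their own, TATCGATA stood in 7 of 19 members, against 6.35% of 9636 genes. It stood in 8 of the 46 members with a pooled region and in 7 of the 27 without one. ACGTG or GCGTG stood in 27 of 73 (37.0%, against 42.7%), and in 1 of the 7 members with an IDR summit. TTAAAA stood in 52 of 73 (71.2%, against 53.4%) and in all 7 with an IDR summit. It stood in 33 of the 46 members with a pooled region and in 19 of the 27 without one, so these shares were alike. Among genes that share a start region it stood in 68.5% of members and 59.5% of genes, and among those with their own in 15 of 19 members, against 50.7% of genes. The start regions of members had a median G+C of 34.6%, against 37.9% for all genes. TTACATAA, TTACGTAA, TTATATAA or TTATGTAA stood in 6 of 73 (8.22%, against 5.18%).

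Among other nuclear genes that serve mitochondrial gene expression, 1 had an IDR summit. They were 38 genes for mitochondrial tRNA synthetases, translation factors, transcription, RNA decay and DNA replication, so the share was 2.63%, against 6.22% of all genes, and at 1000 bp it was 2 of 38 (5.26%, against 7.44%). The pooled list had a region near 15 of the 38 (39.5%, against 48.0%). The gene with an IDR summit was PNPase, an exoribonuclease that degrades RNA in mitochondria, at rank 11 (22 in replicate 1 and 14 in replicate 2; ratio 17.8 ± 3.76, SD, n = 2), with the summit 75 bp downstream of its start site. Next came mtSSB, the mitochondrial single-stranded DNA binding protein gene, at rank 1630 and PolrMT, the mitochondrial RNA polymerase gene, at rank 1716. No pooled region lay near TFAM, which packages mitochondrial DNA, mIF3, mEFTs or PolG1. None of the 15 mitochondrial tRNA synthetase genes had an IDR summit, and the best of them was AspRS-m at rank 9761.

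Beside cytoplasmic ribosomal protein genes, fewer members had an IDR summit, but as many had one in the strongest 100. That limit was chosen after the ranks were seen. The strong summits at mRpS10, mRpS23 and mRpL23 also lay within 500 bp of another gene's start. Of 92 cytoplasmic ribosomal protein genes, 44 had an IDR summit (47.8%), with a median rank of 487.5 and 4 in the strongest 100. Of the 7 members with an IDR summit, 4 were in the strongest 100, and their median rank was 35; all 868 genes with an IDR summit had a median of 596.5 and 10.1% in the strongest 100. Of 84 oxidative phosphorylation genes, subunits of the respiratory chain and 15 ATP synthase genes, 5 had an IDR summit (5.95%), ranked from 194 at ND-ASHI, a complex I subunit gene, to 1038 at ND-51. None of the 5 was in the strongest 100.

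**Figure D5:**
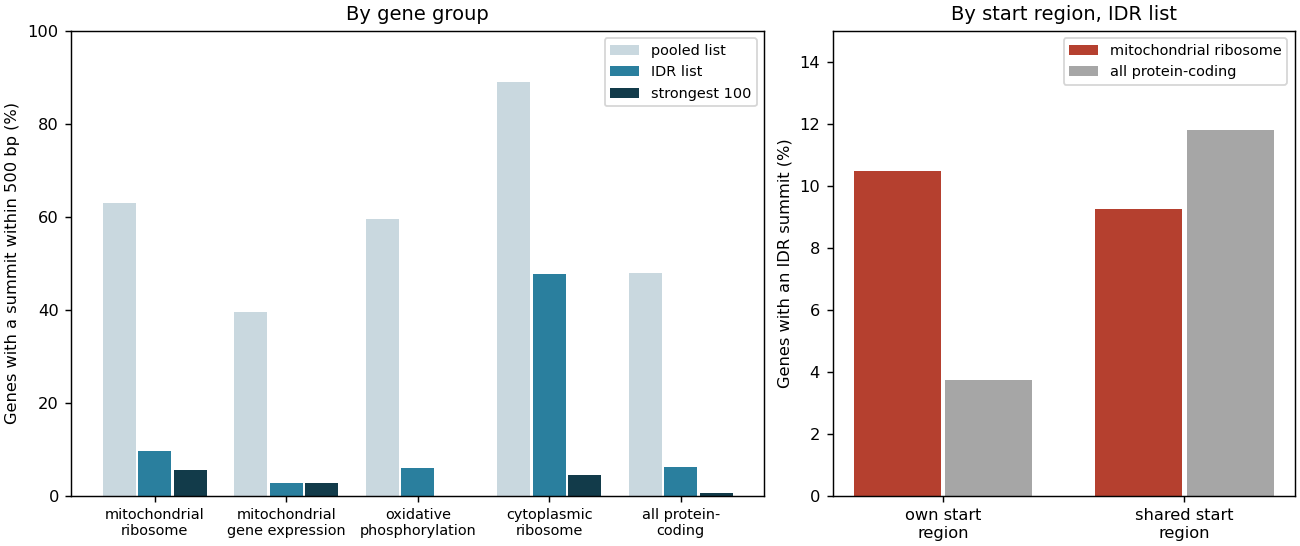
Left, percent of genes with a summit within 500 bp of a start site in the pooled list, the IDR list and its strongest 100 regions, for the 73 mitochondrial ribosomal protein genes, 38 genes of mitochondrial gene expression, 84 of oxidative phosphorylation, 92 of the cytoplasmic ribosome and all 13945 protein-coding genes. The limit of 100 was chosen after the ranks were seen. Right, percent with an IDR summit by start region: 10.5% of members against 3.72% of all genes where the start region is the gene's own, and 9.26% against 11.8% where it is shared.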

How the data were processed

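Sima binding was measured by ChIP-seq with a GFP antibody in 2 replicates of 1 group of embryos. Chromatin was sonicated to 200 to 800 bp, per the labels. The authors made a list from each replicate and from the pooled reads, each together with a further file whose kind is not named, per the file listings deposited with them. The labels name a possible control experiment, which was not analysed here. Each region carries a signal in the lists that the authors deposited. Its scaling, the peak caller and the IDR threshold are not stated in the labels or listings. The deposited lists place each summit by its offset in bases. The dm6 lists were used and the dm3 lists were not, because the gene models are on dm6.

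Start sites were the first bases of all transcripts in Ensembl release 115 (BDGP6.54), and sequence came from the RefSeq copy of Release 6, the same assembly. A gene shared a start region when another protein-coding gene started within 500 bp of one of its start sites. Ratios are signal over the median of the same list, with mean and SD over the 2 replicates. Replicate values are for the strongest region within 500 bp of a start site in that list. With 2 samples of 1 group no test across samples was possible, and counts over genes are descriptions beside the same count over all protein-coding genes. Named genes are every member with an IDR summit, the 5 next by pooled rank, members without a pooled region, and genes sharing the start regions of the first; other members were named after their values were seen. The printed sequences are the 8 strongest members off one arm, trimmed to at most 30 untranslated bases. Members, lists and words were chosen with earlier results of these data known; the G+C content, the strongest 100 and the start windows split by layout were added after the ranks were seen. Region assignment was tested on simulated data. Tables were made in Python 3.11.15 with pandas 2.3.3 and numpy 2.4.6, intervals with scipy 1.17.1, and plots with matplotlib 3.10.9.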

Additional observations from a re-analysis of the deposited data

How the results depend on the processing

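Counts of 7 or fewer genes change by over 1.5 times when a few genes enter or leave. Members with an IDR summit numbered 7, and 4 among the stronger 50% of IDR regions (3.27% of all genes) or when a summit counted for the nearest start site only (4.61%). Leaving out a replicate gave 5 to 9. For the small subunit the count of 4 became 2 with summits within 200 bp, among the stronger 50% of IDR regions and where the region had to overlap the start site, 1 with the nearest start site only, and 2 to 4 with 1 replicate, also with the regions off the arms left out of replicate 1 (chosen after seeing the data). For the large subunit it was 3 to 5 with 1 replicate. The count of members with their own start region was 2, and 1 among the stronger 50% of IDR regions, 1 to 2 with 1 replicate, and 0 with no other start within 1000 bp. Members with a bacterial number were 4, and 2 among the stronger 50% of IDR regions and 3 to 5 with 1 replicate. Those with a mitochondrial number were 3, and 1 with summits within 200 bp, with overlap and with the nearest start site only, and 2 to 4 with 1 replicate. The count of other mitochondrial gene expression genes was 1, and 2 at 1000 bp. The median summit position was -153 to -135 bp with 1 replicate, against -137 bp with both. TTAAAA stood at 14.3% of member summits within 25 bp. Set against the share of all IDR summits, that of TTAAAA at member summits turned from higher to lower within 25 bp (14.3% against 16.7%). Set against the share of all genes, several members' shares also turned from higher to lower: the small subunit with the nearest start site only (3.85% against 4.61%), own start regions at 1000 bp (0 of 13 against 3.57%), and mitochondrial numbers within 200 bp, with overlap and with the nearest start site only (3.23% against 4.22, 3.82 and 4.61%). The large subunit was at 6.38% against 7.44% at 1000 bp. The cause of these shifts was not tested. mRpS10, mRpL41, mRpS23 and mRpL23 were in both replicate lists cut to the length of the IDR list. No paired analysis was possible because there was 1 group. Cut to the length of the IDR list, the list of replicate 2 lacked mRpL4, and that of replicate 1 lacked mRpS2 and mRpS22. The depth of the libraries is unknown.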
